A study of Mus musculus with 4 samples.

Results

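Macrophage activation and scavenger genes were followed here as a set of 10 genes, namely Marco, Msr1, Olr1, Cd5l, Clec4e, Mrc1, Acod1, Arg1, Nos2 and Pdcd1lg2, out of 31044 genes on the array. They were selected on their log2 differences between these same arrays, as genes of macrophage activation and uptake, and found by gene name (Acod1 is printed on the array under its older name, Irg1). Their values are therefore a description with no test. They are read by 12 probes and 21 spots, because Msr1 and Pdcd1lg2 have 2 probes each and the single Acod1 probe is printed 10 times. RNA from mouse lungs was hybridised to Agilent one-colour (Cy3) whole-genome arrays. The 4 groups were Pla2g3-/- mice after antigen challenge, Pla2g3+/+ mice after antigen challenge, Pla2g3-/- controls and Pla2g3+/+ controls, where Pla2g3 encodes a secreted group III phospholipase A2. Each group was 1 array of RNA pooled from 4 samples, so there is no replicate, and a difference between arrays includes any difference between the pools. In the protocol, mice received 10 µg of ovalbumin with 1.3 mg of alum intraperitoneally on days 0 and 14, then breathed 1% ovalbumin aerosol for 30 min on each of days 26, 27 and 28, and lungs were taken 48 h after challenge. The labels attach this protocol to every group, and neither what the controls received nor the age, sex or background strain of the mice appears in the sources used here.

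Macrophages clear particles, modified lipoproteins and dying cells through scavenger receptors and C-type lectins. When they meet interferon or bacterial products they switch on enzymes such as Nos2 and Acod1, and when they meet IL-4 or IL-13, the cytokines of allergic inflammation, mouse macrophages switch on Arg1, Mrc1 and Pdcd1lg2. In the lung, resident alveolar macrophages sit in the airspace and recruited monocytes join them after antigen challenge. In whole lung RNA, fewer cells of a type and less RNA per cell cannot be told apart.

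The sequences behind the regulatory and probe statements come first. RefSeq promoters (GRCm38.p6, from 250 bases before to 50 bases after the start) were at hand for 7 of the 10 genes, all but Arg1, Msr1 and Nos2. The motifs searched, on both strands, were the NF-kB motif, TTCNNNGAA (STAT), the STAT6 motif (TTC and GAA with 4 free bases between them, read by the factor downstream of the IL-4 receptor), TGANTCA (AP-1) and GAGGAAGT (PU.1, the macrophage lineage factor). None of them overlapped another in these promoters. The 3 promoters that held a match are printed 5′ to 3′ in gene orientation with the match in capitals, because they belong to genes of different patterns below. Cd5l lies on the plus strand at chr3:87357631-87357930, Pdcd1lg2 on the plus strand at chr19:29410669-29410968 and Olr1 on the minus strand at chr6:129507116-129507415.
Cd5l: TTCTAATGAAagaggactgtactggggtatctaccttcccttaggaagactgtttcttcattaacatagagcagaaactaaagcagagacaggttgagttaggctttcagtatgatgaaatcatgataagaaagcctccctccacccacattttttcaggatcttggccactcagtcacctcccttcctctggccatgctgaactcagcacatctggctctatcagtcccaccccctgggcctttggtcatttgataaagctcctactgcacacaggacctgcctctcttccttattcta
Pdcd1lg2: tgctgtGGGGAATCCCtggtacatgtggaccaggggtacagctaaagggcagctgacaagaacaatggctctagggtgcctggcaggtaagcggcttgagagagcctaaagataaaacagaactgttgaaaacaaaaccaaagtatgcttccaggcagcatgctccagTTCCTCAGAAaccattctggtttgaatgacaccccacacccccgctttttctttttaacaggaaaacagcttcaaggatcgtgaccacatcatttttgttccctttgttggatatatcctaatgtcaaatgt
Olr1: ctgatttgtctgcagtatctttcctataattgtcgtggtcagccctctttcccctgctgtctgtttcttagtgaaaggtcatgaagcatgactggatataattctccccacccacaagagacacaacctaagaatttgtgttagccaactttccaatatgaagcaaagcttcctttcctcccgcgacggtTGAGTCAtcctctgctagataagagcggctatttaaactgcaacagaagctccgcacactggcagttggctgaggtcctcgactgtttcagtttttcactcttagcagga

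The STAT6 motif stood at bases 1 to 10 of the Cd5l window and at bases 169 to 178 of the Pdcd1lg2 window, and 6.95% of all 32851 RefSeq promoters of that length hold it. The NF-kB motif stood at bases 7 to 16 of the Pdcd1lg2 window, against 4.51% of all promoters. The AP-1 motif stood at bases 191 to 197 of the Olr1 window, against 7.81% of all promoters. The STAT motif (8.3% of all promoters) and the PU.1 motif (3.2%) were in 0 of the 7 windows. A match is a stretch of letters and not a shown binding site.

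Probe sequences fix which transcript was read. The Arg1 probe (mm9, chr10:24636194-24636253, minus strand) begins at base 674 of the transcript and 1 of the Msr1 probes (mm9, chr8:40709296-40709355, minus strand) at base 624. Both keep an open reading frame along their 60 bases, but so does the Acod1 probe, so an open frame does not set them apart. For Acod1, whose probe (mm9, chr14:103455171-103455231, plus strand, as the files give it) begins at base 1968, the first 30 of 60 bases are printed. They are shown because Arg1 and Acod1 are the enzymes with at least 2-fold differences below and Msr1 is read by a pair of separate probes.
Arg1 probe: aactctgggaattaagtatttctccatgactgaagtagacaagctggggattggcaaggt
Msr1 probe: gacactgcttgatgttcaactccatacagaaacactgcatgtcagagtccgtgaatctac
Acod1 probe, first bases: agacagtttgacttggggtggtgaacagtg

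The deposited data come as 2 sources, the scanner files and the authors' value table, and they disagree array by array. Of the 4 table columns, 2 (KO-labelled challenged and WT-labelled control) correlated best with the scanner file carrying their name, and the other 2 with a different one. Across probes, a table column correlated at 0.915 to 0.923 with the scanner file of the same name and at 0.915 to 0.922 with the other scanner files, whereas arrays within the scanner files correlated at 0.986 to 0.992 and within the table at 0.990 to 0.994. Each result is therefore given in both sources, and nothing is tested or scaled across them. Levels are log2 values with the array's 75th percentile at 0, which was a processed intensity of 1808 to 1986 on the scanner arrays. Of the spots, 79.2% to 81.9% were above background on the scanner arrays and 79.8% to 82.1% in the table. The table held lung surfactant transcripts at high levels, with Sftpc at 7.02, 7.04, 6.96 and 6.92 on the KO-labelled challenged, WT-labelled challenged, KO-labelled control and WT-labelled control arrays. On the scanner arrays Sftpc stood at -0.26, -0.66, -0.71 and -1.33, and the alveolar type I marker Ager at -5.01, -5.34, -5.17 and -4.84, against 3.67, 3.60, 3.73 and 3.63 in the table. Sftpc and Ager were picked for these sentences after their values were seen, and they do not stand for all epithelial genes. In units of the 75th percentile, the full list of 12 alveolar epithelial genes summed to 204, 201, 216 and 199 on the scanner arrays. Its table sums were 428, 414, 415 and 399, in the same order of arrays. The list of 10 airway epithelial genes summed to 672, 767, 757 and 744 on the scanner arrays. In the table that list summed to 205, 193, 190 and 185. Immature thymocyte genes summed to 3.99, 3.12, 24.7 and 3.45 on the scanner arrays in the same order, so the KO-labelled control array stood apart. Of 10 such genes, 9 were at least 2-fold lower on the KO-labelled challenged array than on it. No other KO-labelled control array can replace it, so the scanner challenge values of the KO-labelled pair, the scanner comparison of the controls and the difference of responses stand only with it. The comparison of the challenged arrays does not use it, but there too 6 of 10 immature thymocyte genes were at least 2-fold higher on the KO-labelled array and 0 lower, with a median of 1.22 (log2).

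The targeted gene went against the labels. Pla2g3 was higher on the KO-labelled than on the WT-labelled array for both of its probes, in both treatments and in both sources. The higher levels were 14.8-fold to 25.4-fold in the table and 4.36-fold to 23.5-fold on the scanner arrays. Which exons the allele lacks is not stated in the labels, so whether the probes lie within them is not known. Why Pla2g3 was higher under the KO label was not tested. Arrays are therefore named KO-labelled and WT-labelled, and directions between genotypes follow the labels alone.

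In the authors' value table, all 10 genes were above background on every array. Antigen challenge went with higher Cd5l, Arg1 and Pdcd1lg2 under both labels and with higher Acod1 under the WT label alone, while Marco, Olr1, Clec4e, Nos2, Mrc1 and Msr1 differed by less than 2-fold under both. Counted at 2-fold, 3 of 10 genes were higher and 0 lower on the KO-labelled challenged than on the KO-labelled control array, a pair in which 2.61% of all genes tested were higher and 0.767% lower. In the WT-labelled pair 4 were higher and 0 lower, against 1.72% and 0.628% of all genes. The median over the 10 genes was 0.29 (log2) in the KO-labelled pair and 0.61 in the WT-labelled pair, against 0.02 and 0.01 over all genes.

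The scanner files gave a different picture. There, 9 of the 10 genes were at least 2-fold higher on the KO-labelled challenged array than on the KO-labelled control array, all but Nos2, and 0 were lower, against 3.88% of all genes higher and 3.37% lower. In the WT-labelled pair only Acod1 was at least 2-fold higher, while Marco and Cd5l were at least 2-fold lower, against 1.92% and 1.68% of all genes. The medians were 1.94 (log2) in the KO-labelled pair and -0.22 in the WT-labelled pair, against -0.06 and -0.03 over all genes. The KO-labelled challenged array held the highest scanner level of all 10 genes. Since the genes were chosen with these contrasts known, their counts are not read against the background shares.

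**Figure D1:**
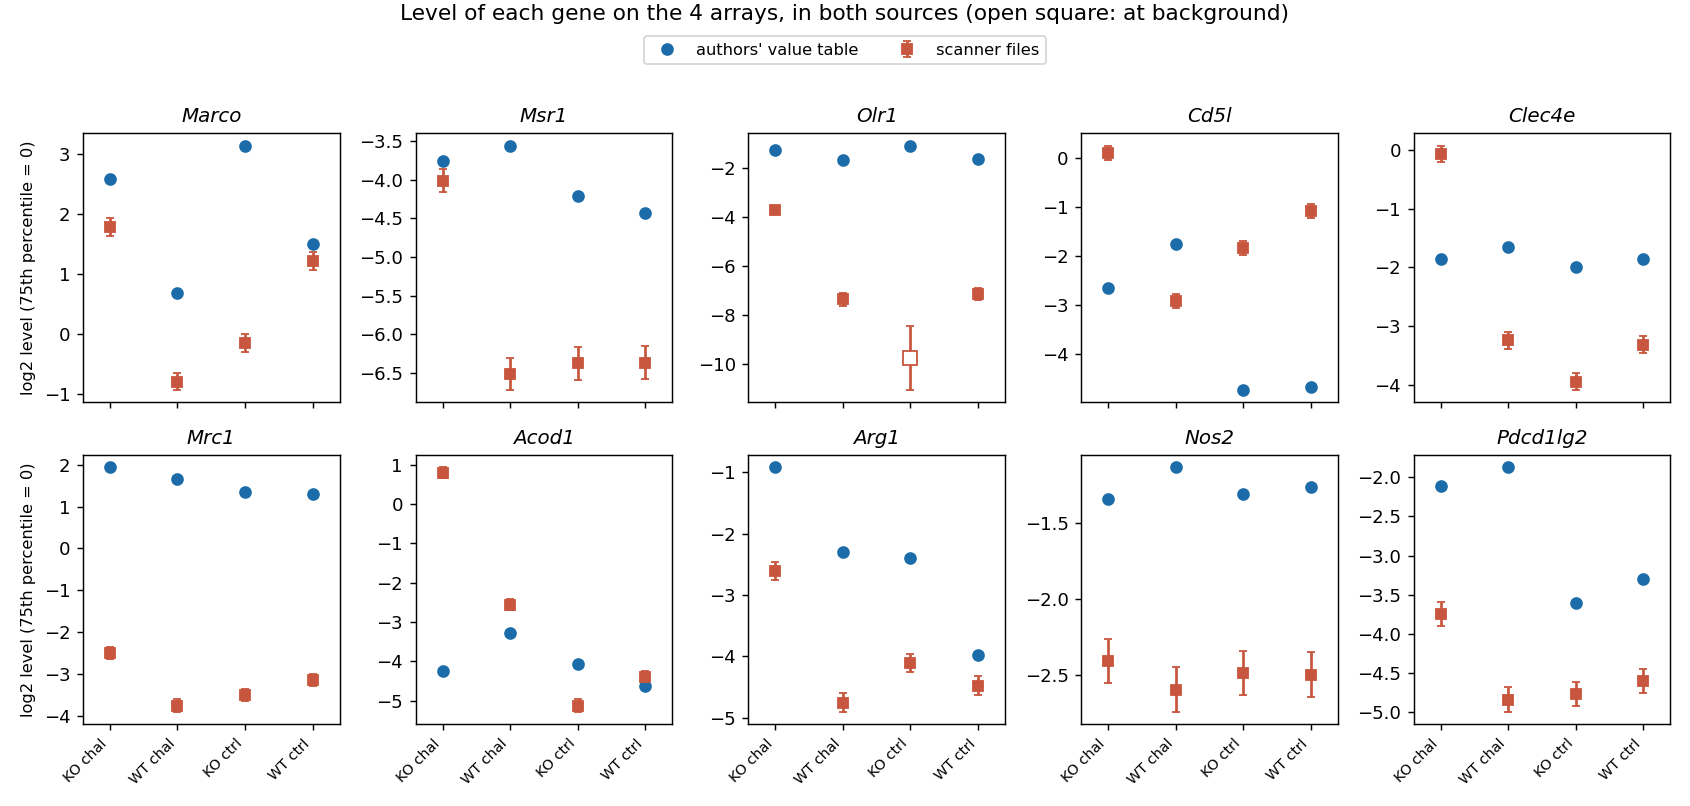
Log2 level of each of the 10 genes on the KO-labelled challenged, WT-labelled challenged, KO-labelled control and WT-labelled control arrays, with the array's 75th percentile at 0. Circles are the authors' value table and squares the scanner files, bars are Agilent's error of the spot (the table has none), and the open square is Olr1 at background. On the scanner arrays the KO-labelled challenged array is the highest for every gene, by a small margin for Nos2, and in the table it is so for Arg1 and Mrc1.

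Among the scavenger receptors, Marco, a class A receptor of lung macrophages that binds bacteria and inhaled particles, was split by label in the table. Its table level was 2.58 on the KO-labelled challenged, 0.68 on the WT-labelled challenged, 3.15 on the KO-labelled control and 1.51 on the WT-labelled control array. Both KO-labelled arrays lay above both WT-labelled arrays, by 3.73-fold on challenged and 3.12-fold on control arrays, and challenged arrays lay below their controls by less than 2-fold (log2 -0.57 in the KO-labelled and -0.82 in the WT-labelled pair). On scanner arrays, Marco stood at 1.79, -0.79, -0.15 and 1.22 in the same order. That placed challenge 3.82-fold higher in the KO-labelled pair and 4.03-fold lower in the WT-labelled pair (log2 1.94 and -2.01, spot error 0.20 each). The label difference changed direction with treatment there, being 5.97-fold higher on the KO-labelled than the WT-labelled challenged array and 2.58-fold lower on the KO-labelled than the WT-labelled control array.

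Msr1, the class A receptor that takes up modified low-density lipoprotein, moved little in the table, with levels of -3.75, -3.55, -4.21 and -4.43 for the probe used. Challenged arrays were the higher ones, 1.37-fold in the KO-labelled and 1.84-fold in the WT-labelled pair, both under 2-fold. Its second probe gave the same order of treatments at -4.40, -4.25, -4.76 and -5.06. The scanner levels of Msr1 were -4.01, -6.52, -6.38 and -6.37, so that 1 array was high and the other 3 lay within their spot errors of each other. Against its control, the KO-labelled challenged array was 5.16-fold higher (log2 2.37, spot error 0.26) and 5.68-fold above the WT-labelled challenged array. With normexp and quantile normalization these were smaller, at log2 1.03 and 1.08. The second probe showed the same single high array, at -4.86 against -6.92, -6.79 and -6.45.

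Olr1, the receptor for oxidised low-density lipoprotein also called LOX-1, differed by less than 1.5-fold in every table comparison. Its table levels were -1.27, -1.65, -1.07 and -1.60, and the KO-labelled arrays were the higher ones in both treatments. Scanner levels of Olr1 were -3.70 on the KO-labelled challenged and -7.35 on the WT-labelled challenged array. Among controls it was not above background on the KO-labelled array (measured at -9.76) and stood at -7.15 on the WT-labelled array. With the KO-labelled control array set at its lowest signal above background, Olr1 was at least 16.1-fold higher on the KO-labelled challenged than on the KO-labelled control array (log2 4.01). It was 12.5-fold higher on the KO-labelled than on the WT-labelled challenged array (log2 3.65, spot error 0.31). These sizes hold for this scaling alone, since normexp background correction with quantile normalization gave log2 1.81 between the KO-labelled arrays and 1.59 between the challenged arrays. By the main scaling the WT-labelled arrays differed by less than their error (-0.21, spot error 0.37).

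Cd5l, a secreted scavenger receptor cysteine-rich protein of tissue macrophages also called AIM, had the largest challenge difference of the 10 genes in the table. Its table levels were -2.66 on the KO-labelled challenged, -1.76 on the WT-labelled challenged, -4.74 on the KO-labelled control and -4.67 on the WT-labelled control array. Both challenged arrays lay above both controls, by 4.25-fold in the KO-labelled and 7.53-fold in the WT-labelled pair. The challenged arrays differed by 1.86-fold, with the KO-labelled one lower, and the controls by 1.05-fold. Scanner levels of Cd5l were 0.12, -2.92, -1.82 and -1.07. Challenge there stood 3.85-fold higher in the KO-labelled pair and 3.60-fold lower in the WT-labelled pair (log2 1.94 and -1.85, spot error 0.20 each), and the KO-labelled challenged array was 8.22-fold above the WT-labelled challenged array. Cd5l and Marco were the only 2 of the 10 genes more than 2-fold lower after challenge in any comparison of either source.

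The C-type lectins Clec4e and Mrc1 stayed under 2-fold in the table. Clec4e, or Mincle, is an activating receptor that recognises mycobacterial glycolipid and material from damaged cells, and its table levels were -1.86, -1.66, -1.99 and -1.85. They spanned 0.33 on the log2 scale over the 4 arrays. Scanner levels of Clec4e were -0.07, -3.24, -3.95 and -3.32, with 1 high array and the WT-labelled pair within spot error of each other. Its level on the KO-labelled challenged array was 14.8-fold above the control (log2 3.88, spot error 0.21) and 9.04-fold above the WT-labelled challenged array. The difference from its control was log2 3.28 with normexp and quantile normalization.

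Mrc1, the mannose receptor CD206 and a marker of alternatively activated macrophages, had table levels of 1.94, 1.65, 1.34 and 1.31. The challenged arrays were higher by 1.51-fold in the KO-labelled and 1.27-fold in the WT-labelled pair. The scanner levels of Mrc1 were -2.48, -3.74, -3.50 and -3.14. Mrc1 on the KO-labelled challenged array was 2.02-fold above the control (log2 1.01, spot error 0.21), so this call lies within the spot error of the 2-fold rule, and the WT-labelled challenged array was 1.52-fold below its control (log2 -0.60, spot error 0.21).

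Of the enzymes, Acod1, which makes the antimicrobial metabolite itaconate, had a different highest array in each source, and its 10 spots per array allow the reading error to be seen. In the table the spots averaged -4.25 ± 0.056 on the KO-labelled challenged, -3.28 ± 0.13 on the WT-labelled challenged, -4.06 ± 0.059 on the KO-labelled control and -4.63 ± 0.070 on the WT-labelled control array (SD over 10 spots of 1 array). The scanner spots averaged 0.80 ± 0.044, -2.56 ± 0.045, -5.12 ± 0.23 and -4.39 ± 0.089 in the same order. Within a source, the spot ranges of different arrays did not overlap except for the KO-labelled arrays of the table, with spots of -4.33 to -4.18 on the challenged and -4.19 to -3.99 on the control array. These spreads cover spotting and reading on 1 array and not the variation between mice.

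In the table, challenge went with 1.15-fold lower Acod1 in the KO-labelled pair and 2.54-fold higher Acod1 in the WT-labelled pair. On the challenged arrays Acod1 was 1.96-fold lower under the KO label, and on the controls 1.49-fold higher under it. With the scanner arrays, challenge went with 60.7-fold higher Acod1 in the KO-labelled pair (log2 5.92, spot error 0.21) and 3.56-fold higher Acod1 in the WT-labelled pair (log2 1.83, spot error 0.21). Between the challenged scanner arrays, the KO-labelled one was 10.2-fold higher, the reverse of the order in the table. With normexp and quantile normalization the KO-labelled pair differed by log2 4.87 in place of 5.92.

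**Figure D2:**
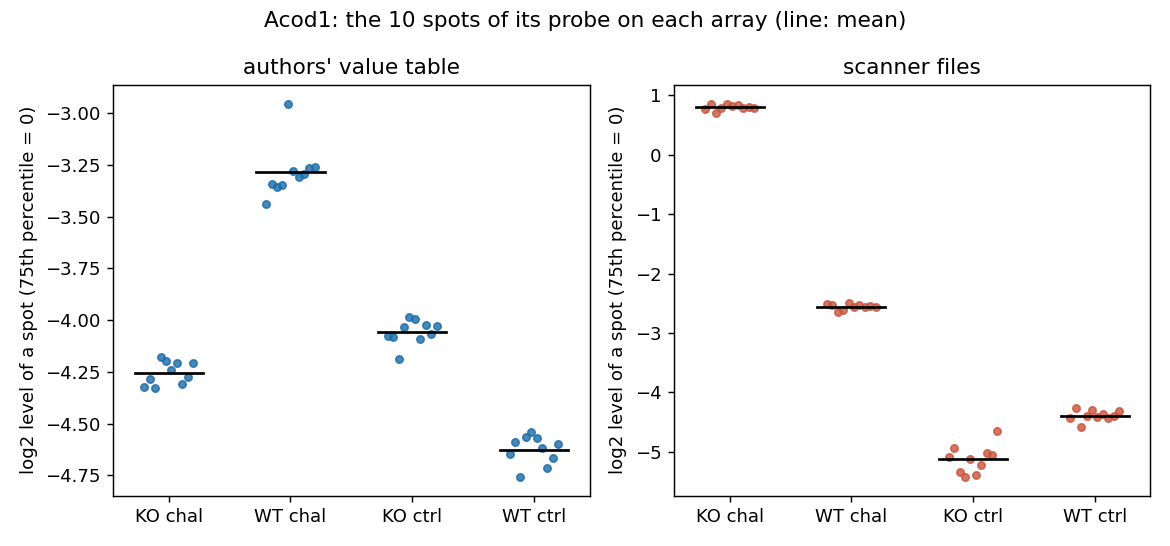
Log2 level of each of the 10 Acod1 spots on the KO-labelled challenged, WT-labelled challenged, KO-labelled control and WT-labelled control arrays, in the authors' value table (left) and the scanner files (right), with the 75th percentile at 0 and a line at the mean. The highest array is the WT-labelled challenged one in the table and the KO-labelled challenged one in the scanner files, and the vertical scales of the panels differ.

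Arg1, the arginase that IL-4 and IL-13 induce in mouse macrophages, was ordered by both treatment and label in the table, at -0.91, -2.29, -2.39 and -3.98. The KO-labelled challenged array was highest and the WT-labelled control array lowest. Challenge stood 2.79-fold higher in the KO-labelled and 3.21-fold higher in the WT-labelled pair. The KO-labelled array was 2.61-fold above the WT-labelled array after challenge, and log2 1.58 above it among controls. Scanner levels of Arg1 were -2.61, -4.75, -4.11 and -4.48. Arg1 on the KO-labelled challenged array was 2.82-fold above the control (spot error 0.21 on the log2 scale) and 4.43-fold above the WT-labelled challenged array, while the WT-labelled pair differed by -0.28 (spot error 0.21).

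Nos2, the inducible nitric oxide synthase that competes with arginase for arginine, did not differ by more than 1.16-fold in any table comparison, with levels of -1.34, -1.14, -1.31 and -1.27. Its scanner levels were -2.41, -2.60, -2.49 and -2.50, all within the spot errors of 0.14 to their neighbours. With 1 array per group, this gives a level and no limit on how far Nos2 could vary between mice. Nos2 was the 1 gene of the 10 that stayed under 2-fold in every comparison of both sources.

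Pdcd1lg2 encodes PD-L2, a ligand of the inhibitory receptor PD-1 of T cells, which macrophages and dendritic cells carry after exposure to IL-4. In the table it followed treatment and not label, at -2.11 and -1.87 on the KO-labelled and WT-labelled challenged arrays and at -3.61 and -3.30 on the KO-labelled and WT-labelled control arrays. Challenge stood 2.82-fold higher in the KO-labelled pair and 2.70-fold higher in the WT-labelled pair. The other probe, which lies 3 bases away on mm9 and therefore shares most of its bases, gave -2.22, -2.11, -3.75 and -3.24. In the scanner files that other probe was the brighter one and was used, with levels of -3.75, -4.84, -4.77 and -4.60. Its KO-labelled challenged array was 2.03-fold above the control (log2 1.02, spot error 0.21), within its error of the 2-fold rule, and log2 0.75 with normexp and quantile normalization. The probe used in the table stood at -3.86, -5.31, -5.07 and -5.16 on the scanner arrays, with the same single high array.

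**Figure D3:**
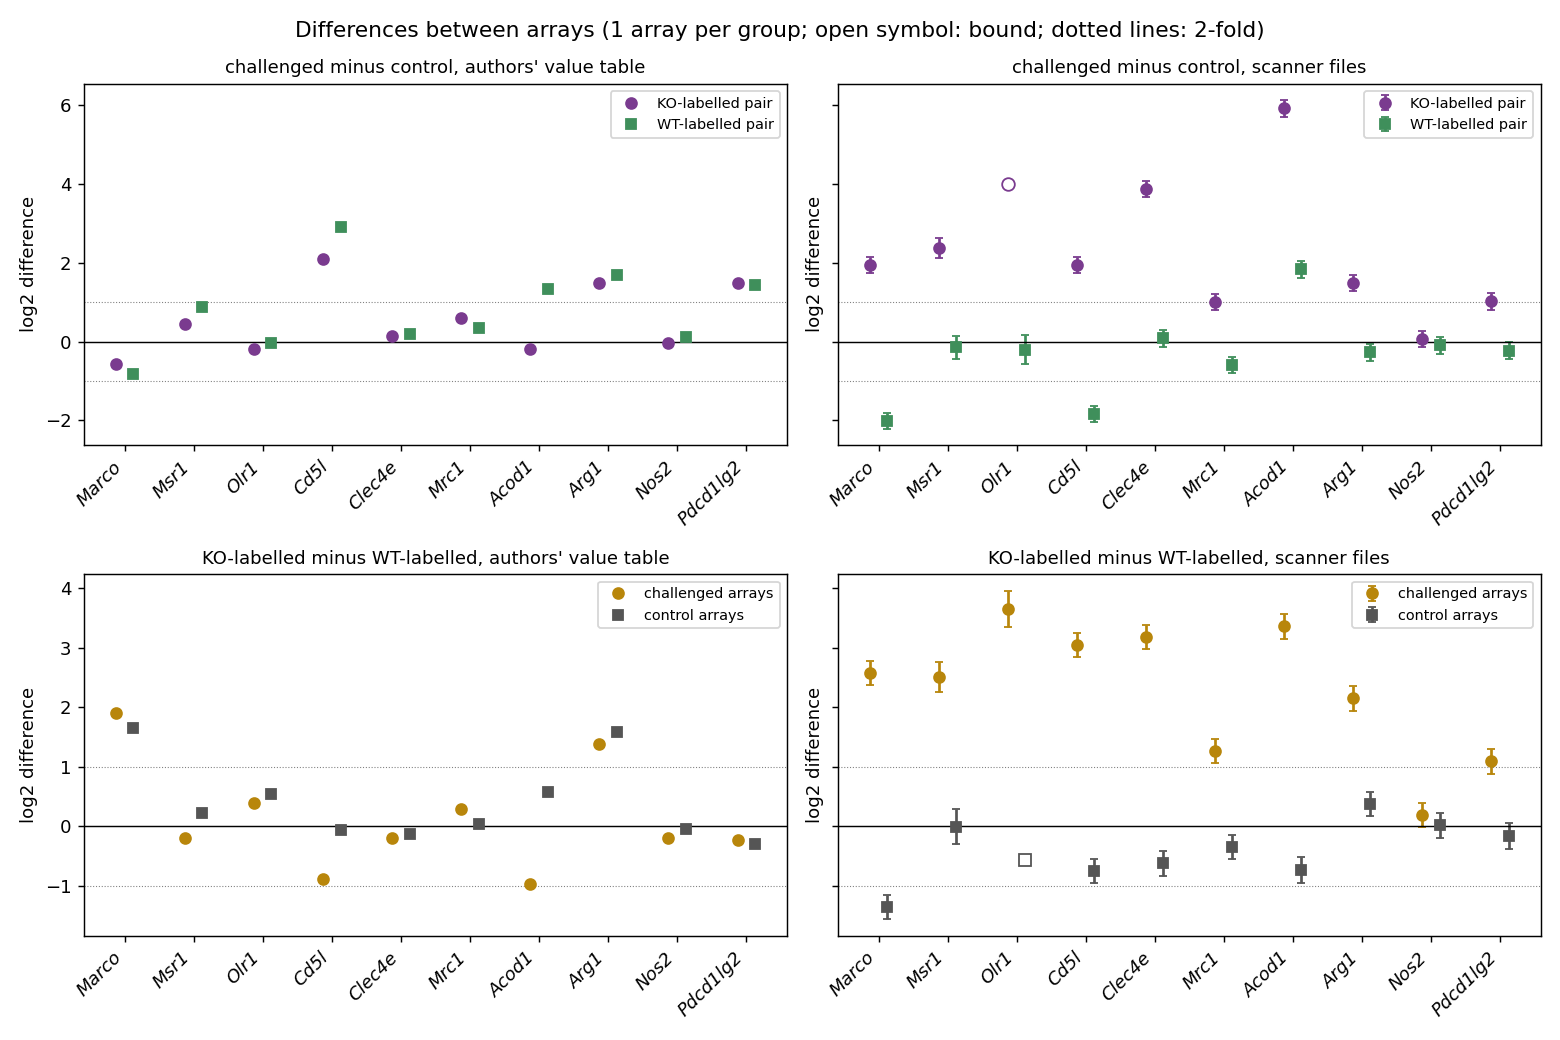
Log2 differences between arrays for the 10 genes, challenged minus control (top) and KO-labelled minus WT-labelled (bottom), in the authors' value table (left) and the scanner files (right). Bars are spot errors (none in the table), open symbols are bounds set by the Olr1 array at background, and dotted lines mark 2-fold. In the table Cd5l, Arg1 and Pdcd1lg2 lie above 2-fold in both pairs, and in the scanner files 9 genes lie above it in the KO-labelled pair.

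Between labels, the table placed Marco and Arg1 at least 2-fold higher on KO-labelled arrays in both treatments and 0 genes lower. That is 2 of 10 among challenged arrays, where 1.72% of all genes were higher and 2.47% lower, and 2 of 10 among controls, against 1.52% and 2.33%. The medians over the 10 genes were -0.20 among challenged and 0.13 among control arrays (log2). By scanner values, 9 of 10 genes were higher on the KO-labelled challenged array, with a median of 2.54 (3.86% of all genes higher, 2.57% lower, median -0.05). In that same comparison 7 of 11 neutrophil genes (median 1.71) and 6 of 10 immature thymocyte genes (median 1.22) were higher and 0 of either list lower. Of 15 macrophage and monocyte genes, 0 were higher and 1 lower at 2-fold there, with a median of 0.67. The part of these cell types in the result was not tested. Among scanner controls 0 were higher and Marco was lower, with a median of -0.46 (3.23% and 1.91% of all genes, median -0.03), beside 9 of 10 immature thymocyte genes higher (median 4.18). These comparisons share arrays with the challenge comparisons, so they are other views of the same 4 levels.

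The response to challenge under the KO label minus that under the WT label was at least 2-fold for 1 gene of the table values, namely Acod1 at -1.54 (log2), against 1.94% of all genes past 2-fold upward and 1.87% downward. Scanner values of 9 of 10 genes were past 2-fold upward, with a median of 3.15, against 4.23% upward and 3.76% downward of all genes. These 9 values ran from 1.26 for Pdcd1lg2 to at least 4.22 for Olr1, which was 1.84 with normexp and quantile normalization. With 1 array per group there is no spread against which to set such a difference.

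Other genes of the same systems are given from lists by their counts at 2-fold. Of 20 further scavenger receptors, the table had 1 higher in the KO-labelled and 2 in the WT-labelled challenge pair, with medians of 0.05 and 0.12. Cd163, the haemoglobin scavenger receptor, was higher in both (1.15 and 1.06 on the log2 scale). Its control levels were near background, at -8.04 on the KO-labelled and -8.10 on the WT-labelled array. The lowest signals above background on those arrays were -8.31 and -8.42. Scanner values had 3 of 18 measured receptors higher in the KO-labelled and 1 in the WT-labelled pair, with medians of 0.05 and -0.09.

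Of 19 other C-type lectins, the table had 4 higher in the KO-labelled and 2 in the WT-labelled pair, and Cd209e led at 3.91 and 3.04 (log2). Clec10a, a galactose-binding lectin of alternatively activated macrophages, was at 1.48 in the KO-labelled and 0.72 in the WT-labelled pair. Scanner values put 5 higher and 1 lower in the KO-labelled pair, against 1 and 1 in the WT-labelled pair. Clec4d, which pairs with Mincle, was at 4.13 and 1.38, and Clec4n, or Dectin-2, at 2.08 and 0.43.

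Among the lists of these systems, genes induced by IL-4 and IL-13 had the most table calls. They were 6 of 19 higher in the KO-labelled and 5 of 19 in the WT-labelled pair with 0 lower. Of all genes, 2.61% and 1.72% were higher in these pairs. The eosinophil chemokine Ccl24 was at 5.17 and 3.13 (log2), the lipoxygenase Alox15 at 3.13 and 1.54 and the chitinase-like Chil4 at 2.27 and 2.32. Of 22 genes induced by interferon or endotoxin, 2 and 3 were higher in the table, among them Cxcl9 (2.05 and 1.27). Scanner values gave 14 of 20 of the interferon and endotoxin genes in the KO-labelled pair, with a median of 2.39, and 5 of 20 in the WT-labelled pair, with a median of 0.26. Il1b stood at 4.62 and 2.20 there and Cxcl10 at 4.38 and 1.80. The IL-4 list had 10 of 19 higher and 0 lower in the scanner's KO-labelled pair and 6 higher and 1 lower in its WT-labelled pair, with Ccl17, a T cell chemokine, at 4.44 and 2.69.

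Around the enzymes, 0 of 15 measured genes of arginine, nitric oxide and itaconate metabolism passed 2-fold in either table pair. On the scanner arrays 1 of 15 did in each pair, Arg2, the mitochondrial arginase, at 3.54 and 1.57. Around Pdcd1lg2, its receptor gene Pdcd1 was the 1 of 10 PD-1 family genes higher in the table, at 2.29 and 1.14. The scanner arrays had 2 of 10 higher in the KO-labelled pair, Cd274 (PD-L1) at 1.47 and Cd86 at 1.33, against 0.37 and -0.01 in the WT-labelled pair. Around Clec4e, 0 of 16 Mincle and Toll-like receptor signalling genes passed 2-fold in the table, while on the scanner arrays 6 of 16 were higher in the KO-labelled pair, including Tlr2 at 1.71, and 0 of 16 in the WT-labelled pair.

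**Figure D4:**
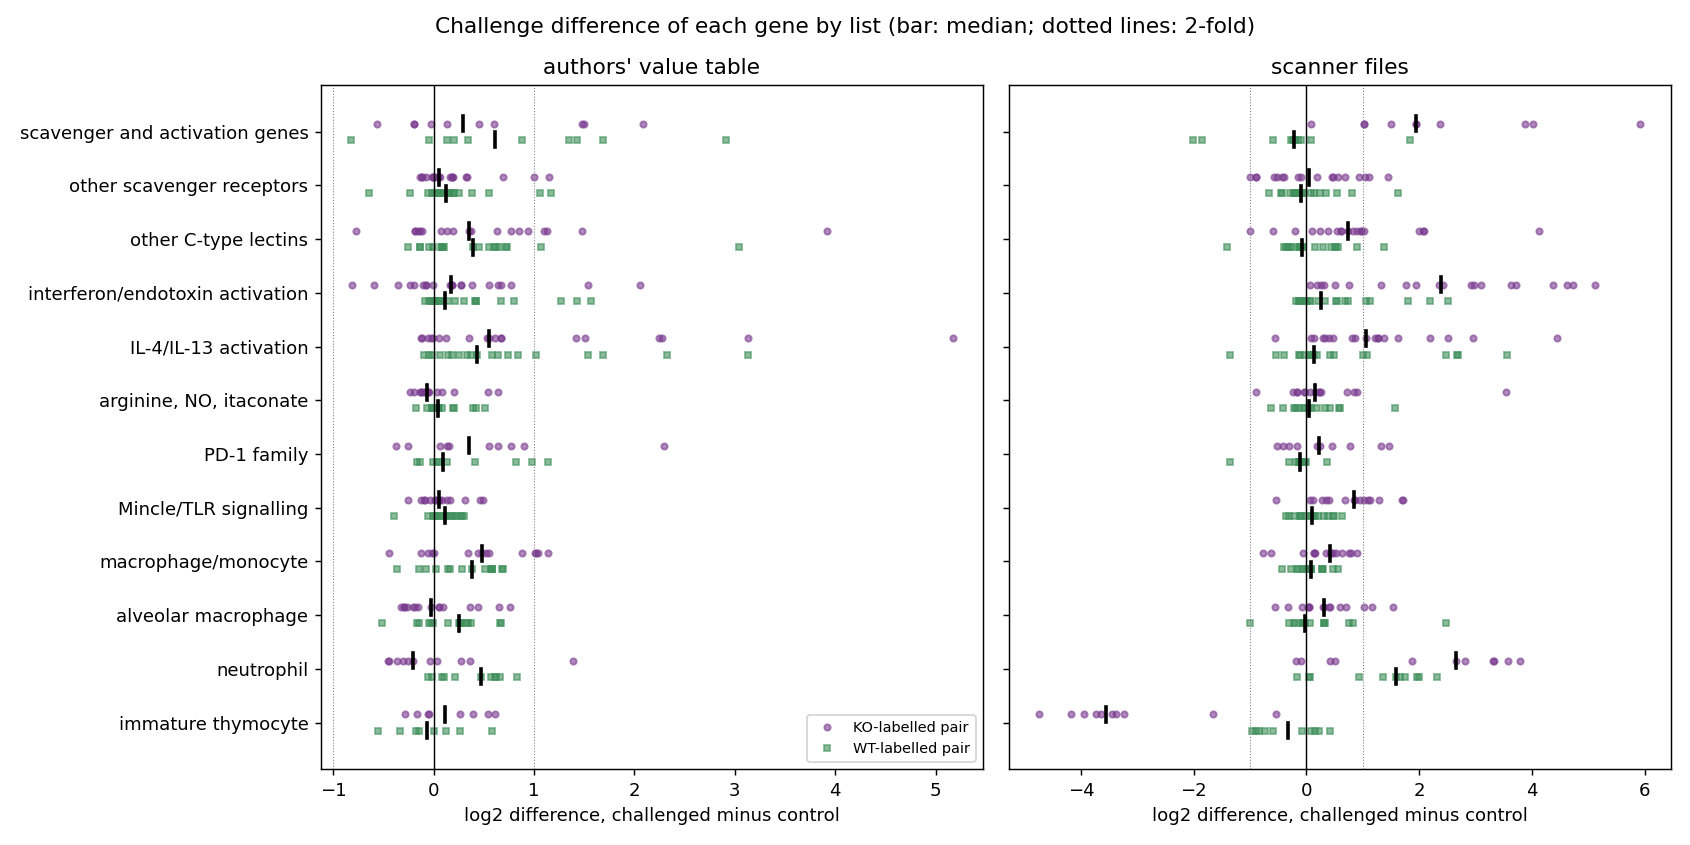
Log2 difference of every measured gene of each list, challenged minus control, in the KO-labelled pair (circles) and the WT-labelled pair (squares), for the authors' value table (left) and the scanner files (right). Black bars are list medians and dotted lines 2-fold, and arrays at background are set at the floor. In the scanner files the interferon/endotoxin list has a median of 2.39 in the KO-labelled pair and 0.26 in the WT-labelled pair, and the immature thymocyte list one of -3.55 in the KO-labelled pair.

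Markers of the cells that could carry these transcripts moved as follows, and their part in the results was not tested. Of 15 macrophage and monocyte genes, the table had 4 higher in the KO-labelled and 0 in the WT-labelled challenge pair, C1qb, C1qc and Aif1 among the 4. Their summed level was 72.3 on the KO-labelled challenged against 66.7 on the KO-labelled control array, and 78.5 on the WT-labelled challenged against 71.4 on the WT-labelled control array, in units of the 75th percentile. Their table medians were 0.48 in the KO-labelled and 0.39 in the WT-labelled pair (log2), against 0.02 and 0.01 over all genes. On the scanner arrays 0 of 15 passed 2-fold in either pair, with sums of 61.1 against 55.1 under the KO label and 53.1 against 54.7 under the WT label. The scanner medians of these genes were 0.41 in the KO-labelled and 0.08 in the WT-labelled pair, against -0.06 and -0.03 over all genes. Of 15 alveolar macrophage genes, 0 passed 2-fold in the table, and on the scanner arrays 3 were higher in the KO-labelled and 1 in the WT-labelled pair. They summed to 204, 200, 184 and 164 in the table and to 44.4, 32.9, 29.5 and 19.4 on the scanner arrays. The order of arrays is KO-labelled challenged, WT-labelled challenged, KO-labelled control and WT-labelled control.

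Neutrophil genes were higher on the challenged scanner arrays under both labels, 7 of 11 in each pair, with medians of 2.65 under the KO label and 1.58 under the WT label. Their summed scanner level moved far less, at 259 on the challenged against 226 on the control array under the KO label. Under the WT label it was 247 against 236. The table had 1 of 11 higher in the KO-labelled and 0 of 11 in the WT-labelled pair. Eosinophil genes went the other way between sources, with 4 of 7 higher in the table's KO-labelled pair and 1 of 7 in its WT-labelled pair, against 0 higher and 1 lower of 5 in each scanner pair. Their summed table level was 1.78 on the KO-labelled challenged, 0.933 on the WT-labelled challenged, 0.467 on the KO-labelled control and 0.704 on the WT-labelled control array. Of 10 dendritic cell genes, the table had 2 higher and 0 lower in each pair, with medians of 0.51 (KO label) and 0.34 (WT label). On the scanner arrays 0 of 9 were higher in either pair, and 1 was lower in the WT-labelled pair. No list named here had all its defining genes at background in either source.

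Genes whose pattern over the 4 arrays lay closest to that of a member were ranked by the root mean square difference of centred log2 levels, on 4 points each, among 16247 genes in the table and 16063 on the scanner arrays. In the table, Arg1 was closest to Fxyd4 (0.24), Dmbt1 (0.26) and Dcstamp (0.28). Cd5l was closest to Tff2 (0.28), Dbp (0.34) and Saa3 (0.43), and Marco to Bcan (0.17), Htr2b (0.22) and Tnfrsf10b (0.27). Among scanner levels, Acod1 was closest to the chemokine genes Cxcl3 (0.32) and Ccl7 (0.37) and to Cstdc4 (0.54). Clec4e was closest to Cxcl9 (0.17), Fpr1 (0.20) and Mefv (0.21), and Cd5l to Timd4 (0.26), Art2b (0.39) and Gc (0.44). No neighbour was shared between the sources for Cd5l, the 1 gene ranked in both.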

How the data were processed

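Mouse lung RNA was measured on 4 one-colour Agilent arrays, 1 per group, and groups were taken from the sample titles. Scanner files carry the processed intensity of each spot, with an error and quality flags, written by Agilent Feature Extraction 11.5.1.1 per the file headers. In the authors' deposited table each spot has a linear signal whose 75th percentile is about 1 per column, and the steps behind it are not stated in the labels. The scanner processed intensity was taken to log2 and each array's 75th percentile over non-control spots subtracted, and the deposited table signal was taken to log2. A spot was above background by Agilent's flag, or in the table by exceeding 5 times the column's median negative control. That rule matched the flag for 99.2% of scanner spots.

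Spots of a probe were averaged, 20 uneven spots were left out and 0 spots were saturated. Of 39429 probes, 28330 were named by accession and 2378 by symbol through the RefSeq table, and 8721 kept the file's name. A gene was its probe with the highest mean log2 over the 4 arrays of a source, and 26311 genes (scanner) and 26010 genes (table) were above background on at least 1 array. An array at background was set at the lowest signal above background on that array, which makes the difference a bound. Differences of at least 2-fold were counted. With 1 array per group no p-value was computed, and precision is limited by the number of arrays. The spot error is Agilent's own and covers reading only. The counting step was run on simulated arrays with known shifts past 2-fold and noise the size of the spot error. That checks the code alone, since no difference between pools and no array at background was simulated.

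The 10 genes and the 15 lists were chosen with earlier results of these data known. From each list up to 3 genes were named, those with the largest challenge difference averaged over labels among genes above background on all arrays. Alternatives were other filters, fold rules, probe choice, scaling and normexp background correction (offset 50) with quantile normalization in limma 3.58.1 under R 4.3.3. Other steps used Python 3.11.15, pandas 2.3.3 and numpy 2.4.6.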

Additional observations from a re-analysis of the deposited data

Results flagged for a closer look

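Several of the 10 genes had challenge responses of opposite sign under the 2 labels, with at least 1 of them 2-fold or more, and are listed for that reason. With 1 array per group the difference was not tested for any of them. In the authors' value table this was Acod1, whose response was -0.20 (log2) under the KO label and 1.34 under the WT label, a difference of -1.54.

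On the scanner arrays, Marco differed by 3.95, with responses of 1.94 under the KO label and -2.01 under the WT label. Cd5l differed by 3.79, with responses of 1.94 and -1.85 in the same order. Olr1 differed by at least 4.22, since it was at background on the KO-labelled control array, and by 1.84 with normexp and quantile normalization. For Msr1 the difference was 2.51 (1.05 with that normalization) and for Arg1 it was 1.77, and their WT-labelled responses were small (-0.15 and -0.28). Mrc1 differed by 1.61, with responses of 1.01 and -0.60. Pdcd1lg2 differed by 1.26, with responses of 1.02 and -0.24. Of these, the WT-labelled responses of Olr1 and Msr1 lay within their spot errors of 0.37 and 0.30. Those of Arg1 and Pdcd1lg2 lay past their spot errors of 0.21 and 0.22 by the main scaling. They were only -0.13 and -0.09 with normexp and quantile normalization. In the table, none of these 7 genes had responses of opposite sign.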

How the results depend on the processing

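The fold rules and filters reuse the reported log2 values, apart from arrays at background, so they could not test a sign. Only scaling, background correction and probe choice could. Of 43 values of the 10 genes that were at least 2-fold, none of 372 values under all alternatives together took the other sign. Of the 372, 4 were under 2-fold. Those 4 came with normexp and quantile normalization of the scanner arrays, which gave 0.85 for Mrc1 and 0.75 for Pdcd1lg2 in the KO-labelled pair, 0.88 for Pdcd1lg2 between challenged arrays and 0.84 for its difference of responses. Under that setting 27 of the 50 scanner values of the 10 genes moved by 0.2 (log2) or more, against 23 that did not, and all 27 came out smaller in size. Olr1 in the KO-labelled pair was 1.81 and Msr1 1.03.

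Scanner member counts of 9 in the KO-labelled pair, 9 on challenged arrays and 9 for the difference of responses were 7, 8 and 8 with normexp and quantile normalization, 6, 7 and 8 at 3-fold, and 8 each when all 4 arrays had to be above background. Member counts moved with the fold rule in the table. At 1.5-fold the count between labels on challenged arrays was 4 in place of 2, and for the difference of responses 2 in place of 1. At 3-fold the counts were 1 in the KO-labelled pair, 2 in the WT-labelled pair, 1 between labels on challenged arrays, 1 on controls and 0 for the difference of responses. In the scanner files the count between labels on controls, 1 as reported, was 2 without a filter and also 2 with arrays at background at their measured value (an alternative chosen after seeing the data), 4 at 1.5-fold and 0 at 3-fold.

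Counts over all genes, given for the KO-labelled pair, the WT-labelled pair, the challenged arrays and the control arrays, moved more. In the table, 846, 603, 1064 and 979 as reported were 1913, 1531, 2181 and 2028 without a filter, 2352, 1500, 2438 and 2371 at 1.5-fold and 277, 250, 512 and 477 at 3-fold, and the WT-labelled pair had 334 when all 4 arrays had to be above background. In the scanner files, 1849, 930, 1658 and 1319 as reported were 716, 192, 481 and 466 with normexp and quantile normalization, 2837, 1668, 2785 and 2076 without a filter, 4486, 2569, 3908 and 3235 at 1.5-fold and 811, 329, 635 and 486 at 3-fold. With all 4 arrays above background the WT-labelled pair, the challenged arrays and the control arrays had 492, 1070 and 874.

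Leaving out an array was not run because it would empty a group. No paired analysis was possible because every group is a single array and the labels carry no replicate numbers. Signals near background, such as Olr1 on the scanner arrays, limit what can be read.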
